A study of Rattus norvegicus with 18 samples.

Results

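The receptors for serotonin are described here through every array probe that the scanner files name for Htr1a, Htr1b, Htr1d, Htr2a, Htr2c, Htr3a, Htr4, Htr5a, Htr6 or Htr7, or that carry an older accession of the same RefSeq transcript. These 10 genes, of 16240 named genes on the array, were covered by 15 of its 41012 probes. The tested groups were WHP rats, selected for a high preference for ethanol, and WLP rats, selected for a low preference, and all were male and had not been given alcohol. Each RNA sample pooled equal amounts of total RNA from 3 rats, so differences between single rats were not measured. In the hippocampus, the nucleus accumbens and the medial part of the prefrontal cortex (called prefrontal medial cortex here, as labelled), 3 WHP pools were set against 3 WLP pools per area, and each of the 9 pool pairs was hybridised on 2 two-colour arrays with the dyes exchanged. The labels name no treatment of either strain, and they leave unsaid whether 1 rat gave tissue to pools of more than 1 area.

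Serotonin is released in the forebrain by axons of raphe neurons and acts on receptors that differ in the signal they pass on. The Htr1 receptors and Htr5a inhibit adenylyl cyclase through Gi and Go proteins, the Htr2 receptors activate phospholipase C through Gq proteins, and Htr4, Htr6 and Htr7 stimulate adenylyl cyclase through Gs. Htr3a is the exception, a subunit of a cation channel opened by serotonin. Htr1b and Htr1d also act as autoreceptors on serotonin axon endings, so part of their protein sits far from the neurons that hold their mRNA.

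The probes are 60-base oligonucleotides, and 3 sets of them are shown because the results turn on what they can tell apart. The Htr1a, Htr1b and Htr1d probes that were designed on the RefSeq transcripts cover matching stretches of 3 related genes, placed by the scanner files on the rn4 build at chr2:36435726-36435785 (listed strand +), chr8:86700094-86700153 (listed strand -) and chr5:155189728-155189787 (listed strand +). They are given from 5′ to 3′, with capitals for the bases that are equal in all 3 when they are aligned without gaps.
Htr1a A_43_P15468: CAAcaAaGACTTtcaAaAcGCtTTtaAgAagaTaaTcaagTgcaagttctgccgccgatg
Htr1b A_43_P15558: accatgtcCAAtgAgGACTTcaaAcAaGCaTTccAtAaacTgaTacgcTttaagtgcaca
Htr1d A_43_P15445: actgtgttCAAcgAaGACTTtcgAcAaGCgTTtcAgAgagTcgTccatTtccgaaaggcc
Of the 52 positions covered by all 3 probes, 20 held the same base, and the pairs shared between 53.8% and 57.7% of aligned bases with no common run longer than 9 bases.

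Htr2c had 3 probes. A_44_P792784 (chrX:31013361-31013420, listed strand -) and A_44_P274913 (chrX:31013346-31013405, listed strand +) read opposite strands of one place and share 45 bases as reverse complements, of which the middle 30 are shown for both. A_43_P11553 (chrX:31015679-31015738, listed strand -) lies 2318 bases away and is shown whole.
Htr2c A_44_P792784: ttcctaaagcactagcaataagttgaatga
Htr2c A_44_P274913: tcattcaacttattgctagtgctttaggaa
Htr2c A_43_P11553: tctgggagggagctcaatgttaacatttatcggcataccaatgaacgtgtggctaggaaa
A_44_P792784 and A_44_P274913 hold stop codons in all 3 reading frames of the listed orientation, whereas A_43_P11553 has 2 open frames. Because its listed strand is opposite to that of both other Htr2c probes, A_44_P274913 was taken as a probe for RNA of the strand opposite to Htr2c mRNA, and its values are kept apart.

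Htr7 had 2 probes 10327 bases apart, A_44_P371317 (chr1:240135108-240135167, listed strand -) and A_44_P412178 (chr1:240145435-240145494, listed strand -), and the second is shown because it gave other strain ratios than the first.
Htr7 A_44_P412178: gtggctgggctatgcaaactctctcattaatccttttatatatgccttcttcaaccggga
The other probes were A_44_P184163 of Htr1a (chr2:36436131-36436190), A_43_P11882 and A_44_P508280 of Htr2a (chr15:55532169-55532228 and chr15:55533559-55533618), A_44_P540908 of Htr3a (chr8:52162516-52162575), A_44_P226802 of Htr4 (chr18:58433536-58445239, a span that includes sequence the probe skips), A_43_P11737 of Htr5a (chr4:2707264-2707323) and A_44_P114052 of Htr6 (an unplaced part of chromosome 5). No rn4 gene models were used here, so exon and untranslated positions are not assigned.

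Detection in an area required a signal well above local background, by the scanner's own mark, on at least 4 of the 6 arrays in the channel of either strain. By that rule 14 of the 15 receptor probes, for 9 of the 10 genes, were detected in at least 1 area. Htr4, whose receptor is linked to memory and to gut motility, was the exception. Its probe was not well above background in any of the 12 channels of the nucleus accumbens or of the prefrontal medial cortex and reached that mark in 2 of 12 hippocampal channels, so it was not tested. The second sense-strand probe of Htr2c, A_43_P11553, was detected in 12 of 12 channels of the nucleus accumbens, 9 of 12 prefrontal ones and 1 of 12 hippocampal ones. The opposite-strand probe A_44_P274913 was well above background in 6, 5 and 7 of 12 channels of the same areas. No receptor probe was saturated.

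Between 28670 and 38173 spots of a channel were well above background. Median signals were higher on the hippocampal arrays, between 155 and 209 in green, against 78.2 to 100.4 in the nucleus accumbens and 81.4 to 98.2 in the prefrontal medial cortex. The hippocampal arrays were scanned in a session of their own, so for every comparison with the hippocampus the area and the scan session cannot be told apart. The nucleus accumbens and prefrontal pairs of one number shared a slide. In 2 pool pairs, nucleus accumbens pair 3 and hippocampus pair 2, the log2 ratios of the dye-swapped arrays did not go together over detected probes (Pearson's r of 0.044 and -0.004, against 0.30 to 0.70 in the other 7 pairs).

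Markers of the dissected areas were read as mean log2 levels of fixed gene lists. The 10 striatal markers averaged 10.8 ± 0.44 in the nucleus accumbens, 10.7 ± 0.31 in the prefrontal pools and 8.96 ± 0.17 in the hippocampus (SD, n = 3 pool pairs each). The prefrontal pools therefore carried striatal markers at a level within the spread of the nucleus accumbens pools, together with a cortical list of 9.48 ± 0.13, against 7.99 ± 0.12 in the nucleus accumbens and 9.32 ± 0.03 in the hippocampus. The 9 measured hippocampal markers averaged 8.44 ± 0.04 in the hippocampus, 7.95 ± 0.03 in the prefrontal pools and 7.85 ± 0.04 in the nucleus accumbens. The part of dissection in the differences between areas was not tested. In these bulk RNA pools fewer cells of a type and less RNA per cell cannot be told apart.

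A probe of each of the 9 detected genes was detected in all 3 areas, and the areas differed in the level of several. Of the 14 detected probes, 2 were higher and 4 lower in the nucleus accumbens than in the prefrontal medial cortex, against 21.5% and 21% of all 35155 probes tested. Between the nucleus accumbens and the hippocampus 9 were higher and 3 lower, against 35.5% and 37.9% of all probes, and between the prefrontal medial cortex and the hippocampus 8 were higher and 4 lower, against 33.5% and 36.8%. In total 6, 12 and 12 of the 14 were called, and with so large a share of the array called these counts are no result about the receptors as a set. The median log2 difference of the receptor probes was -0.01, 0.26 and 0.29 in these 3 comparisons, and that of all probes tested 0.00, -0.02 and -0.02. Levels are log2 signals after background correction that adds 50 to each spot, which pulls the levels of dim probes together. Tests are limma's moderated tests over the 9 pool pairs with Benjamini-Hochberg adjustment over all 35155 probes, and a call means an adjusted p under 0.05. When arrays were centred on their medians in place of equalising their distributions, 2, 7 and 8 of the 14 probes were called in these comparisons, while over all 35155 probes the calls came to 1535, 14326 and 14769, against 14943, 25812 and 24724.

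Htr2a, the Gq-coupled receptor of cortical pyramidal neurons and the target of classical hallucinogens, had the widest spread between areas on this scale, although with the scanner's processed signals that of Htr1d was wider. Its brighter probe, A_44_P508280, gave levels of 7.59, 7.32 and 7.53 in the 3 nucleus accumbens pairs, 8.15, 8.15 and 8.38 in the prefrontal pairs and 6.79, 6.71 and 6.78 in the hippocampal pairs. No pair of one area overlapped with those of another. The log2 difference was -0.75 ± 0.08 for the nucleus accumbens minus the prefrontal medial cortex (SE, adjusted p = 8.9e-05, limma), 0.72 ± 0.08 for the nucleus accumbens minus the hippocampus, and 1.47 ± 0.08 for the prefrontal medial cortex minus the hippocampus (adjusted p = 4.9e-07). The second probe, A_43_P11882, lies 1390 bases away, was printed in 10 spots, and ordered the areas in the same way, with differences of -0.48, 0.42 and 0.90. With the scanner's own processed signals, which carry no added constant, the prefrontal excess over the hippocampus was 2.58 and 1.48 for the 2 probes.

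Htr1d, a Gi-coupled autoreceptor and the target of triptan drugs, was lowest in the hippocampus. Its levels were 7.81, 7.35 and 7.68 in the nucleus accumbens, 7.40, 7.51 and 7.26 in the prefrontal medial cortex and 6.42, 6.45 and 6.45 in the hippocampus. The first 2 areas overlapped, and both lay above all hippocampal pairs. The difference was 1.18 ± 0.11 between the nucleus accumbens and the hippocampus (adjusted p = 5.1e-06, limma) and 0.95 ± 0.11 between the prefrontal medial cortex and the hippocampus (adjusted p = 2.8e-05). The probe was well above background in 6 of 12 hippocampal channels, and with processed signals these differences came to 3.39 and 2.59. Between the nucleus accumbens and the prefrontal medial cortex the difference of 0.22 ± 0.11 did not pass (adjusted p = 0.12), but it passed in 3 of 22 alternatives, among them without nucleus accumbens pair 2 (0.36, adjusted p = 0.0045) and with processed signals (0.81, adjusted p = 0.027).

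Htr6, a Gs-coupled receptor known for its high expression in the striatum, showed the same order. Its levels were 7.68, 7.26 and 7.39 in the nucleus accumbens, 7.24, 7.30 and 7.31 in the prefrontal medial cortex and 6.67, 6.62 and 6.76 in the hippocampus. Every pair of the first 2 areas lay above the hippocampal pairs. The excess over the hippocampus was 0.76 ± 0.09 for the nucleus accumbens (adjusted p = 4.1e-05, limma) and 0.60 ± 0.09 for the prefrontal medial cortex (adjusted p = 0.00024), and 1.57 and 1.08 with processed signals. The nucleus accumbens exceeded the prefrontal medial cortex by 0.16 ± 0.09, which did not pass (adjusted p = 0.21) except without nucleus accumbens pair 2 (0.25, adjusted p = 0.042).

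Htr2c, a Gq-coupled receptor that is abundant in the choroid plexus and whose mRNA is edited in neurons, was lower in the hippocampus by both sense probes. The bright probe A_44_P792784 gave 12.32, 12.31 and 12.54 in the nucleus accumbens, 12.19, 12.63 and 11.82 in the prefrontal medial cortex and 11.17, 11.53 and 11.75 in the hippocampus. All pairs of the first 2 areas lay above those of the hippocampus. The differences were 0.90 ± 0.19 (nucleus accumbens minus hippocampus, adjusted p = 0.0019, limma) and 0.73 ± 0.19 (prefrontal medial cortex minus hippocampus, adjusted p = 0.007). They were 0.41 and 0.11, with adjusted p of 0.32 and 0.78, with median centring, and 0.63 and 0.46, with adjusted p of 0.12 and 0.26, over the WHP channels alone.

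The second sense-strand probe, A_43_P11553, was well above background in 1 of 12 hippocampal channels, so the size of its differences from the hippocampus is uncertain. In WLP hippocampus it was not well above background on any of 6 arrays. Measured on the WLP channels it was at least 1.495-fold higher in the nucleus accumbens (mean level 6.94, against 6.35 in the hippocampus) and at least 1.33-fold higher in the prefrontal medial cortex (6.77). A floor at the lowest signal well above background on each array left these ratios unchanged, as the probe's own hippocampal signal was the higher. The fitted differences were 0.54 ± 0.06 and 0.41 ± 0.06 with the added constant (adjusted p = 1.5e-05 and 0.00013, limma). Over the alternatives they ran from 0.50 to 2.48 and from 0.37 to 1.52, highest with processed signals, so their size was not settled. The level of the opposite-strand probe A_44_P274913 was 6.65 ± 0.03, 6.69 ± 0.16 and 6.47 ± 0.03 (SD, n = 3) in the 3 areas, and its differences from the hippocampus of 0.18 and 0.23 lost their calls with the scanner's processed signals (adjusted p = 0.20 and 0.46).

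Htr1a and Htr5a, both Gi-coupled, were higher in the hippocampus. Htr1a is known for dense binding in the hippocampal formation. Its brighter probe A_44_P184163 gave 7.21, 7.61 and 7.33 in the nucleus accumbens, 7.73, 7.66 and 7.70 in the prefrontal medial cortex and 8.29, 7.89 and 8.21 in the hippocampus. The areas did not overlap. Against the hippocampus the nucleus accumbens differed by -0.74 ± 0.12 (adjusted p = 0.00023, limma) and the prefrontal medial cortex by -0.43 ± 0.12 (adjusted p = 0.0073). The difference of -0.31 ± 0.12 between the nucleus accumbens and the prefrontal medial cortex did not pass (adjusted p = 0.053). The same difference of the other probe, A_43_P15468, was -0.16 ± 0.05 and passed (adjusted p = 0.031), but not with the replicate number as a block (adjusted p = 0.058). That 10-spot probe, dimmer and 405 bases away, showed a smaller difference of -0.14 ± 0.05 between the nucleus accumbens and the hippocampus (adjusted p = 0.036) and one of 0.02 ± 0.05 between the prefrontal medial cortex and the hippocampus, which turned to -0.39 with processed signals (adjusted p = 0.039).

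Htr5a levels were 6.95, 6.93 and 6.87 in the nucleus accumbens, 6.88, 6.95 and 6.99 in the prefrontal medial cortex and 7.34, 7.37 and 7.35 in the hippocampus. The hippocampal pairs lay above all others. Against the hippocampus the nucleus accumbens differed by -0.44 ± 0.04 and the prefrontal medial cortex by -0.42 ± 0.04 (adjusted p = 1.0e-05 and 1.9e-05, limma). Their own difference was -0.02 ± 0.04 (adjusted p = 0.74), with a 95% interval of -0.12 to 0.08, and 0.32 with processed signals (adjusted p = 0.037).

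Htr7, a Gs-coupled receptor of thalamus and limbic areas, had its lowest mean level in the prefrontal medial cortex by both probes. The brighter probe A_44_P371317 gave 9.33, 9.59 and 9.57 in the nucleus accumbens, 8.93, 9.06 and 8.87 in the prefrontal medial cortex and 9.15, 9.33 and 9.09 in the hippocampus. The nucleus accumbens pairs lay above the others, the lowest of them by a margin of under 0.01 from the highest hippocampal pair. The nucleus accumbens exceeded the prefrontal medial cortex by 0.55 ± 0.09 (adjusted p = 0.00078, limma) and the hippocampus by 0.31 ± 0.09 (adjusted p = 0.0088), a difference of 0.08 over the WLP channels alone. The prefrontal medial cortex minus the hippocampus gave -0.24 ± 0.09 (adjusted p = 0.034), which passed in 13 of 21 alternatives and not with processed signals (-0.22, adjusted p = 0.12). A_44_P412178 gave 0.30 ± 0.04 for the first difference (adjusted p = 0.0002) and 0.03 ± 0.04 for the second (adjusted p = 0.53). It gave -0.28 ± 0.04 for the prefrontal medial cortex minus the hippocampus. Another probe, A_44_P1070965, which the files name for a partial Htr7 gene entry, U68491, is not joined to the RefSeq transcript by the files. It gave 0.60 ± 0.08 between the nucleus accumbens and the prefrontal medial cortex and 0.32 ± 0.08 between the nucleus accumbens and the hippocampus.

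Htr3a, the channel subunit of a class of cortical interneurons, had small differences that were called in all 3 comparisons of areas. Its levels averaged 8.03 ± 0.03 in the nucleus accumbens, 8.18 ± 0.05 in the prefrontal medial cortex and 7.82 ± 0.06 in the hippocampus (SD, n = 3). The prefrontal excess over the hippocampus was 0.36 ± 0.05 (adjusted p = 8.3e-05, limma). That of the nucleus accumbens was 0.22 ± 0.05 (adjusted p = 0.0021) and passed in 20 of 21 alternatives. The nucleus accumbens minus the prefrontal medial cortex gave -0.15 ± 0.05 (adjusted p = 0.032), a call that passed in 11 of 22 alternatives and was lost in the first scan session alone with the slide as a block (adjusted p = 0.061). Htr1b, an autoreceptor whose mRNA is known from striatal projection neurons, averaged 7.20 ± 0.04, 7.20 ± 0.10 and 7.18 ± 0.19. None of its differences passed, and the 95% interval of the difference between the nucleus accumbens and the hippocampus ran from -0.17 to 0.22.

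**Figure D1:**
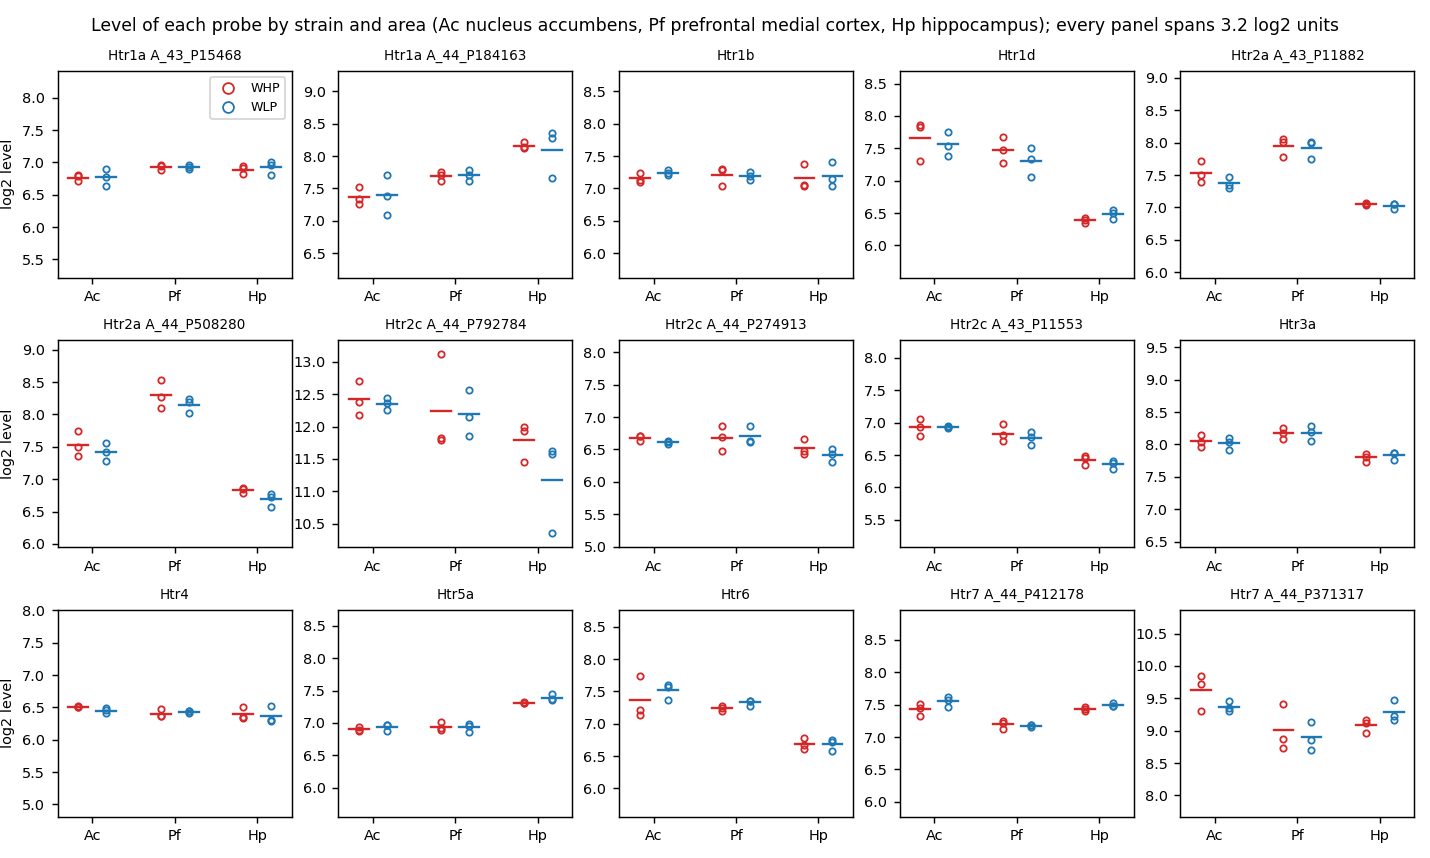
Level of each receptor probe (log2 signal after background correction and scaling) in WHP pools (left, red) and WLP pools (right, blue) of each area; points are the 3 pools and lines their means, and every panel spans an equal range. Htr2a is highest in the prefrontal medial cortex, Htr1d and Htr6 are lowest in the hippocampus, and Htr1a A_44_P184163 and Htr5a are highest there.

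**Figure D2:**
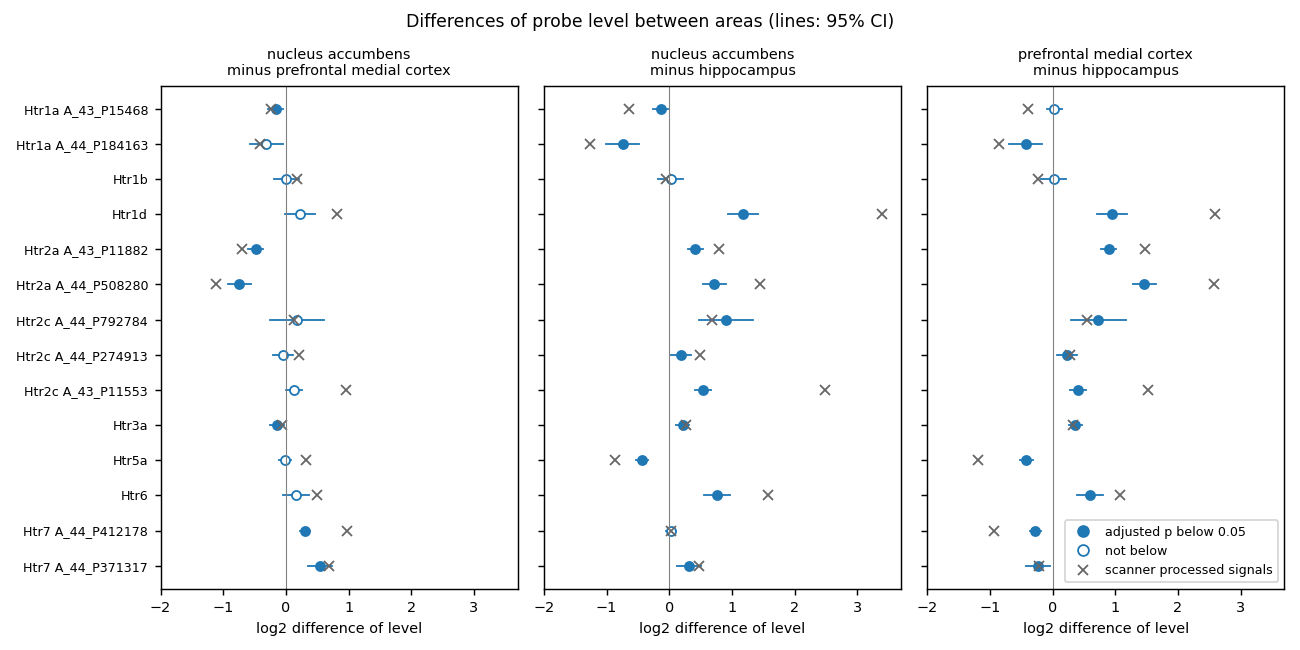
Difference of level between areas for the 14 tested probes (log2, both strains averaged per pool pair, 3 pool pairs per area), with 95% intervals; filled points have an adjusted p under 0.05, and crosses give the value from the scanner's processed signals. Htr1d shows the widest gap between the settings, 1.18 against 3.39 for the nucleus accumbens minus the hippocampus.

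No receptor probe differed between WHP and WLP rats at an adjusted p under 0.05. This held for the 13 probes tested in each single area and the 12 tested in the mean of the areas, by limma over the 9 pool-pair ratios. Over all probes 0.258%, 0.0905%, 0.247% and 2.85% were called in these comparisons, so that a count of 0 among 13 probes lies near the share found over the array. At an unadjusted p under 0.05 the counts were 0, 0, 0 and 1 receptor probes, against 16.3%, 8.46%, 6.67% and 17.8% of all probes. The median size of the mean log2 ratio was 0.09, 0.03 and 0.06 over the receptor probes of the 3 areas and 0.07, 0.06 and 0.04 over all probes tested. The 95% intervals of single areas reached between 0.09 and 0.84 to either side of the mean. They were narrowest for Htr5a and widest for the bright Htr2c probe. The constant of 50 added to each spot also pulls the log2 ratios of dim probes, Htr5a among them, toward 0. A narrow interval of a dim probe is therefore no tight limit on the true strain difference.

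Among the Htr1 receptors, Htr1a A_44_P184163 gave WHP over WLP log2 ratios of 0.25, -0.19 and -0.12 in the nucleus accumbens, 0.04, 0.09 and -0.18 in the prefrontal medial cortex and -0.14, 0.46 and -0.14 in the hippocampus. The sign varied within each area. Its mean over areas was 0.01 ± 0.07 (SE, adjusted p = 0.97, limma), and its hippocampal levels were 8.22, 8.12 and 8.14 in WHP pools and 8.35, 7.66 and 8.28 in WLP pools. The ratio of 0.46 and the level of 7.66 come from hippocampal pair 2, whose dye-swapped arrays gave ratios of 0.88 and 0.03. The 10 spots of A_43_P15468 differed among themselves by a median SD of 0.07 within an array, and its mean over areas was -0.01 ± 0.03. Htr1b ratios were 0.00, -0.15 and -0.11 in the nucleus accumbens, where its mean was -0.09 ± 0.05 (adjusted p = 0.42), and 3 of its 9 pairs were above 0.

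Htr1d ratios were 0.09, -0.09 and 0.30 in the nucleus accumbens and -0.23, 0.34 and 0.42 in the prefrontal medial cortex. Pairs of either sign occurred in both areas. The means were 0.10 ± 0.12 (adjusted p = 0.70, limma) and 0.17 ± 0.12 (adjusted p = 0.77), and the hippocampal mean was -0.09 ± 0.12 at a level near background. Striatal markers had ratios of -0.29, -0.87 and -0.08 in the nucleus accumbens and -0.83, 0.32 and 0.44 in the prefrontal pairs. Their part in the Htr1d ratios was not tested.

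Htr2a was the receptor with the smallest unadjusted p. A_44_P508280 gave ratios of 0.32, 0.08 and -0.07 in the nucleus accumbens, 0.25, -0.10 and 0.29 in the prefrontal medial cortex and 0.14, 0.28 and 0.02 in the hippocampus. WHP was above WLP in 7 of 9 pairs. The mean over areas was 0.13 ± 0.05, with a 95% interval of 0.01 to 0.26, an unadjusted p of 0.038 and an adjusted p of 0.25 (limma), so it did not pass. The second probe had a mean of 0.07 ± 0.06 (adjusted p = 0.54), with ratios of 0.42, 0.05 and 0.03 in the nucleus accumbens. It too was above 0 in 7 of 9 pairs. Its dye-swapped arrays had one sign in 5 of 9 pairs, and those of A_44_P508280 in 6 of 9. On the arrays with WHP in Cy3 alone the mean of A_43_P11882 over areas was -0.0007.

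Htr2c was the least steady of the receptors. The bright probe A_44_P792784 gave ratios of 0.13, -0.26 and 0.33 in the nucleus accumbens, -0.74, 0.98 and -0.07 in the prefrontal medial cortex and 1.64, -0.18 and 0.36 in the hippocampus. Its highest values came from hippocampal pair 1, with levels of 11.99 in WHP and 10.35 in WLP, and prefrontal pair 2, with 13.12 in WHP and 12.14 in WLP. On both dye-swapped arrays of these pairs the ratio was of similar size, 1.69 and 1.6 in the first and 0.89 and 1.07 in the second.

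In those same 2 pairs all 12 markers of choroid plexus and ependyma, the epithelium that makes cerebrospinal fluid and the ciliated lining of the ventricles, were higher in WHP, with mean log2 ratios of 1.95 and 2.41. Hippocampal pair 3 followed with 12 of 12 and a mean of 0.65, while the other 6 pairs had 3 to 9 of 12 markers higher in WHP and means between -0.41 and 0.27. The mean log2 level of the list ran from 9.43 to 9.98 in the hippocampal pairs, where 12 of the 12 markers were detected. It ran from 7.275 to 9.065 in the prefrontal pairs and from 7.72 to 8.07 in the nucleus accumbens pairs, where 8 and 9 were detected. The hippocampal mean of A_44_P792784 was 0.61 ± 0.37 (adjusted p = 0.91, limma). It was 0.09 ± 0.35 without hippocampal pair 1 and 0.03 ± 0.24 with the mean choroid plexus ratio as a covariate. In the prefrontal medial cortex the mean of 0.05 ± 0.37 became -0.41 ± 0.23 with that covariate (adjusted p = 0.69). The highest covariate values came from the same 2 pairs that had the highest ratios of the probe. The probe's lowest ratio, -0.74 in prefrontal pair 1, went with a marker mean of -0.25. In nucleus accumbens pairs 2 and 3, prefrontal pair 3 and hippocampal pair 2 the probe and the marker mean had opposite signs. The lowest marker mean, -0.41 in nucleus accumbens pair 3, went with a probe ratio of 0.33. Other lists varied between pairs too. The striatal list had ratios of -0.83, 0.32 and 0.44 in the prefrontal pairs and 0.08, -0.65 and -0.46 in the hippocampal pairs. The 5 oligodendrocyte markers averaged -0.83, 0.42 and 0.36, then 0.36, 0.63 and 0.15 in the same pairs. The part of choroid plexus or of these lists in the Htr2c ratios was not tested.

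The other Htr2c probes moved less. Their mean levels lay between 6.39 and 6.93, against 11.48 to 12.39 for the bright probe, and the added constant pulls ratios of dim probes toward 0. A_43_P11553 gave ratios of 0.14, -0.16 and 0.00 in the nucleus accumbens and -0.06, 0.19 and 0.06 in the prefrontal medial cortex, and its hippocampal ratios, near background, were 0.19, -0.05 and 0.09. The opposite-strand probe A_44_P274913 gave 0.35, -0.03 and 0.00 in the hippocampus (mean 0.10 ± 0.07, adjusted p = 0.95). The highest hippocampal ratio of all 3 probes was that of pair 1.

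**Figure D3:**
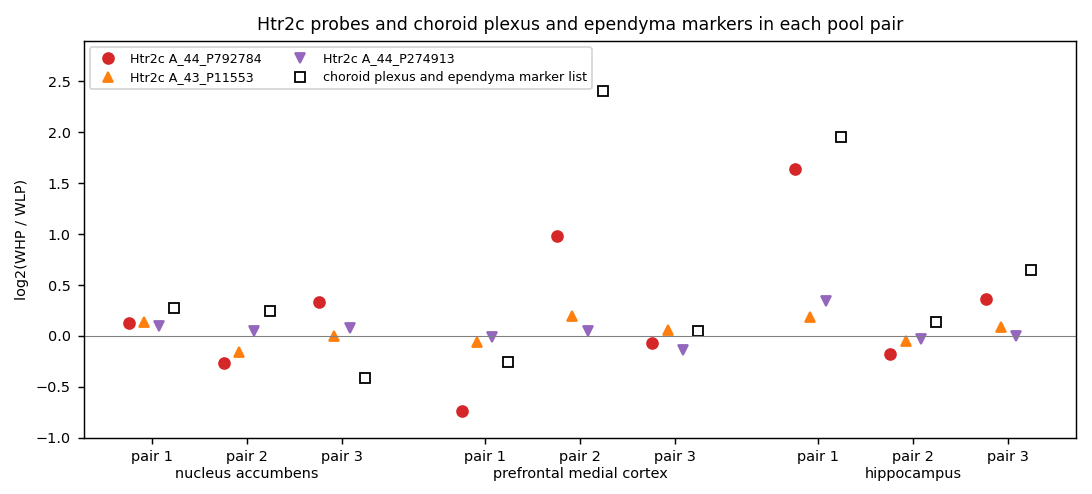
WHP over WLP log2 ratio of the 3 Htr2c probes and mean ratio of the 12 choroid plexus and ependyma markers in each of the 9 pool pairs. The bright probe and the marker list are both highest in prefrontal pair 2 (0.98 and 2.41) and hippocampal pair 1 (1.64 and 1.95). Their signs are opposite in nucleus accumbens pairs 2 and 3, prefrontal pair 3 and hippocampal pair 2.

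Htr6 was lower in WHP in 6 of 9 pairs. Its ratios were 0.14, -0.23 and -0.35 in the nucleus accumbens, -0.08, -0.11 and -0.09 in the prefrontal medial cortex and -0.11, 0.09 and 0.02 in the hippocampus. The prefrontal pairs agreed within 0.02 (SD) and the nucleus accumbens pairs did not. The nucleus accumbens mean was -0.15 ± 0.08 (adjusted p = 0.41, limma) and the mean over areas -0.08 ± 0.05 (adjusted p = 0.42). Without nucleus accumbens pair 1 these became -0.29 ± 0.06 and -0.13 ± 0.03, both at an adjusted p of 0.049. That value leans on pair 3, whose dye-swapped arrays gave 0.04 and -0.73.

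The 2 Htr7 probes gave different ratios. A_44_P412178 was the dimmer one, and the added constant pulls ratios of dimmer probes further toward 0. Its dye-swapped arrays had one sign in 4 of 9 pairs, against 7 of 9 for A_44_P371317. A_44_P371317 gave -0.05, 0.27 and 0.54 in the nucleus accumbens, -0.41, 0.71 and 0.01 in the prefrontal medial cortex and -0.05, -0.31 and -0.26 in the hippocampus. A_44_P412178 gave -0.29, 0.05 and -0.13, then 0.02, 0.10 and -0.06, then -0.08, -0.05 and -0.05 in the same areas. In the nucleus accumbens the means were of opposite sign, 0.25 ± 0.19 (adjusted p = 0.53, limma) and -0.12 ± 0.06 (adjusted p = 0.36). All 3 hippocampal pairs were below 0 for both probes, with means of -0.21 ± 0.19 and -0.06 ± 0.06. The difference of A_44_P371317 between the nucleus accumbens and the hippocampus, 0.46 ± 0.26, had the smallest unadjusted p among the receptor probes' differences between areas (0.12, adjusted p = 0.61). The U68491 probe A_44_P1070965 gave -0.26, 0.21 and 0.03 in the nucleus accumbens, with a mean over areas of -0.01 ± 0.05.

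Htr3a and Htr5a had narrow intervals with the added constant. Htr3a had a mean over areas of 0.00 ± 0.04, with a 95% interval of -0.10 to 0.10, and 2 of 9 pairs above 0. Htr5a had a mean of -0.03 ± 0.02, an interval of -0.09 to 0.02, and hippocampal ratios of -0.04, -0.14 and -0.05 (mean -0.08 ± 0.04, adjusted p = 0.85, limma). Its dye-swapped arrays had one sign in 3 of 9 pairs. Over the alternatives the Htr5a mean over areas ran from -0.10 to 0.03. Htr4, below background, gave ratios between -0.08 and 0.09.

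The strain ratio was also compared between areas. None of the receptor probes passed in any of the 3 differences (limma, 13, 12 and 12 probes tested), and over all probes 0%, 0% and 0% were called. At an unadjusted p under 0.05 there were 0 receptor probes in each.

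**Figure D4:**
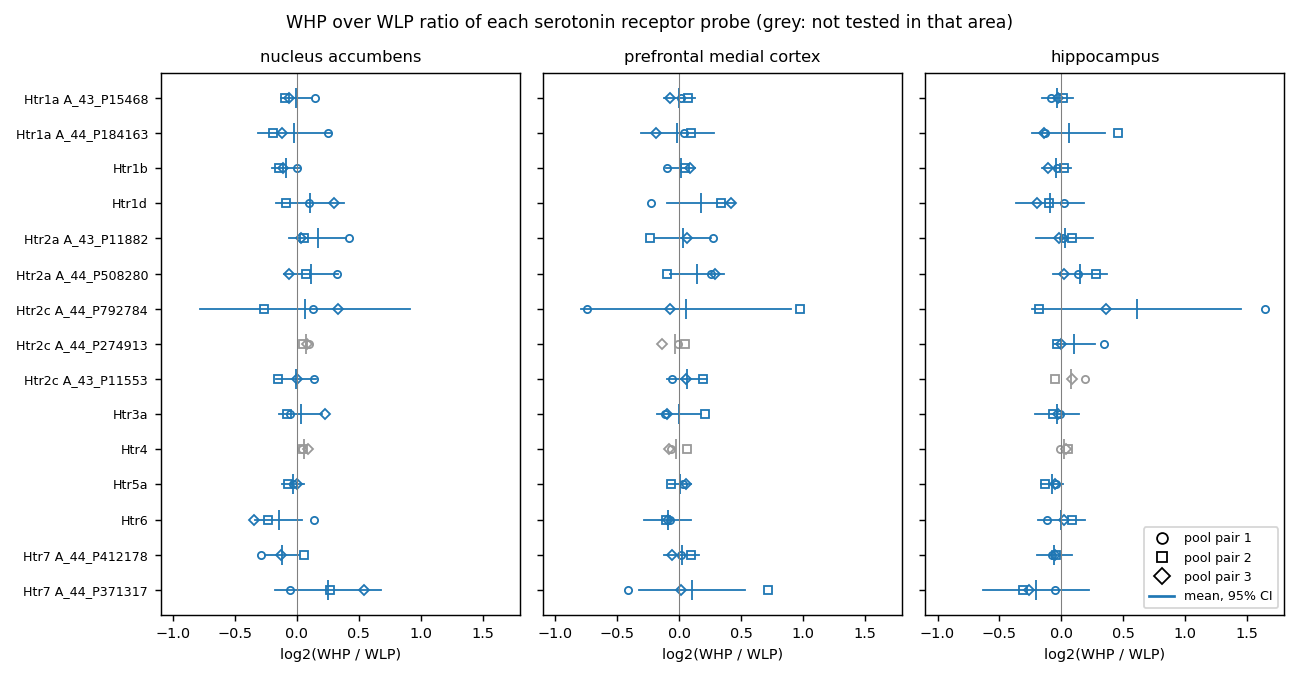
WHP over WLP log2 ratio of every receptor probe in the 3 pool pairs of each area (symbols), with the mean and its 95% interval; grey marks probes not detected in that area, which were not tested. All tested intervals of single areas include 0, and the widest belongs to Htr2c A_44_P792784.

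Other genes of serotonin signalling were read from fixed lists with 1 probe per gene. Of the 4 other receptors, Htr1f, Htr2b, Htr3b and Htr5b, none differed between strains. Htr5b, a receptor that is a pseudogene in humans, stood out between areas. Its levels were 7.77, 7.55 and 7.65 in the nucleus accumbens, 7.31, 7.26 and 7.09 in the prefrontal medial cortex and 10.56, 10.50 and 10.34 in the hippocampus. Against the hippocampus the nucleus accumbens differed by -2.81 ± 0.08 and the prefrontal medial cortex by -3.24 ± 0.08 (adjusted p = 2.1e-08 and 1.5e-08, limma), a wider gap than that of any of the 14 receptor probes above on the same scale. Htr2b was higher in the nucleus accumbens than in the hippocampus by 0.30 ± 0.06 and than in the prefrontal medial cortex by 0.27 ± 0.06. Htr3b, the partner subunit of Htr3a, gave -0.18 ± 0.04 for the nucleus accumbens and -0.22 ± 0.04 for the prefrontal medial cortex, each minus the hippocampus.

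Among 7 genes of serotonin synthesis, transport and breakdown, Maob, a mitochondrial monoamine oxidase of astrocytes and serotonin neurons, was the one called between strains. Its WHP over WLP ratios were -0.30, -0.37 and -0.47 in the nucleus accumbens, -0.15, -0.02 and -0.14 in the prefrontal medial cortex and 0.06, 0.01 and 0.01 in the hippocampus. All nucleus accumbens and prefrontal pairs were below 0. It fell by 0.38 on the log2 scale in WHP nucleus accumbens (SE 0.04, adjusted p = 0.02, limma) and by 0.15 in the mean over areas (adjusted p = 0.022). Astrocyte markers had mean ratios of -0.07, -0.06 and -0.17 in the nucleus accumbens, -0.30, -0.17 and -0.18 in the prefrontal pairs and 0.15, 0.17 and 0.01 in the hippocampus, of the same sign as Maob in all 9 pairs; their part in its ratio was not tested. Of all probes 0.258% and 2.85% were called in these comparisons. None of the list passed in the prefrontal medial cortex or the hippocampus.

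Of 21 G proteins and effectors, none passed in a single area, and Adcy5, the main striatal adenylyl cyclase, fell by 0.31 ± 0.06 in the mean over areas (adjusted p = 0.04, limma), with 8 of 9 pairs below 0. Its ratios were -0.70, -0.52 and -0.47 in the nucleus accumbens, -0.51, -0.02 and 0.11 in the prefrontal medial cortex and -0.12, -0.36 and -0.20 in the hippocampus. The striatal markers given beside Htr1d had hippocampal ratios of 0.08, -0.65 and -0.46 and were below 0 in 6 of 9 pairs; their part in the Adcy5 ratio was not tested. Of 15 measured regulators and interactors, Grk2, a kinase that phosphorylates active receptors, fell by 0.17 ± 0.04 (adjusted p = 0.046), with 9 of 9 pairs below 0. In the mean over areas 2.85% of all probes were called, so 1 of 21 and 1 of 15 lie near that share. With trend and robust variances 0 probes were called between strains, so the Maob, Adcy5 and Grk2 calls were lost. The list medians in the mean over areas were -0.05 for the 6 tested genes of synthesis, transport and breakdown, -0.04 for the G proteins and effectors and -0.02 for the regulators, against 0.00 over all probes.

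The levels of these lists were also compared between areas with limma, and their counts are read against the shares of all probes. For synthesis, transport and breakdown, 4 of 7 were higher and 3 lower in the nucleus accumbens than in the hippocampus, against 35.5% and 37.9% of all probes. Slc18a2, the vesicular monoamine transporter, differed by 2.05 ± 0.09, Ddc, which makes serotonin and dopamine from their precursors, by 1.51 ± 0.10, Tph2, the neuronal enzyme that starts serotonin synthesis, by -1.04 ± 0.06, and Maob by 0.73 ± 0.07. Against the prefrontal medial cortex the nucleus accumbens had 2 of 7 higher, Slc18a2 at 1.18 ± 0.09 and Ddc at 1.1 ± 0.10, and 2 lower, Maob at -0.39 ± 0.07 and its relative Maoa at -0.23 ± 0.05, against 21.5% and 21% of all probes. The prefrontal medial cortex had 4 higher and 2 lower than the hippocampus (33.5% and 36.8% of all probes). The widest were Maob at 1.12 ± 0.07, Tph2 at -1.103 ± 0.06, Slc18a2 at 0.87 ± 0.09 and Tph1, the peripheral form of the synthetic enzyme, at -0.71 ± 0.13. Tph1 was well above background in 6 of 12 prefrontal channels. Tph2 reached that mark in 10 of 12 channels of both the nucleus accumbens and the prefrontal medial cortex, at mean levels of 6.79 and 6.74. The added constant pulls such dim levels together, so the sizes of the Tph1 and Tph2 differences were not settled.

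Of the 21 G proteins and effectors, 7 were higher and 11 lower in the nucleus accumbens than in the hippocampus, against 35.5% and 37.9% of all probes. The widest differences were those of Kcnj6, a potassium channel opened by Gi-coupled receptors, at -2.82 ± 0.15, of the adenylyl cyclases Adcy5 and Adcy9 at 1.77 ± 0.20 and -1.49 ± 0.07, and of Gnal, the striatal and olfactory G protein that stimulates them, at 1.31 ± 0.12. The prefrontal medial cortex minus the hippocampus gave 10 higher and 7 lower (33.5% and 36.8% of all probes), with Adcy9 at -1.602 ± 0.07, Kcnj6 at -1.59 ± 0.15, Adcy5 at 1.32 ± 0.20 and Gnal at 1.21 ± 0.12. Against the prefrontal medial cortex the nucleus accumbens had 2 higher and 8 lower (21.5% and 21% of all probes), with Kcnj6 at -1.23 ± 0.15, the Gi subunit Gnai1 at -0.72 ± 0.06, the calcium release channel Itpr1 at -0.72 ± 0.16 and the Gq family member Gna11 at -0.56 ± 0.08.

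The regulators counted 7 higher and 5 lower of 15 between the nucleus accumbens and the hippocampus, against 35.5% and 37.9% of all probes, led by Rgs4, which speeds the shutdown of Gi and Gq proteins, at 1.19 ± 0.16, Cc2d1a, a repressor that binds the Htr1a gene, at 0.83 ± 0.07, the scaffold Mpdz at -0.73 ± 0.13 and the sorting nexin Snx27 at 0.60 ± 0.05. The prefrontal medial cortex minus the hippocampus also gave 7 higher and 5 lower (33.5% and 36.8% of all probes), with Rgs4 at 2.25 ± 0.16, the arrestin Arrb2 at 0.70 ± 0.09, Cc2d1a at 0.69 ± 0.07 and the postsynaptic scaffold Dlg4 at 0.68 ± 0.05. The nucleus accumbens minus the prefrontal medial cortex gave 2 higher and 6 lower (21.5% and 21% of all probes), with Rgs4 at -1.05 ± 0.16, Dlg4 at -0.56 ± 0.05, Adarb1, an enzyme that edits Htr2c mRNA, at 0.45 ± 0.11 and the kinase Fyn at -0.38 ± 0.07.

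The level patterns most like those of the 4 receptors with the widest range of area means were found among 12493 other named genes that were detected in all areas, by Pearson's r of the level over the 9 pool pairs, which share slides, scan sessions and area. For Htr2a the highest r belonged to Ttll11, Trpm4 and Syt16 (0.996, 0.995 and 0.995). For Htr1d these were Yod1, Pde7b and Penk (0.993, 0.990 and 0.990), and for Htr6 Apc, Pde7b and Atpaf1 (0.990 each). For Htr2c they were Nexn, Zar1 and Gmpr2 at lower values (0.966, 0.958 and 0.955). Penk, the proenkephalin gene of striatal neurons, had mean levels of 13.8, 13.2 and 10.7 in nucleus accumbens, prefrontal and hippocampal pools. A high r does not mean a difference of like size. In the same areas Yod1 had means of 6.765, 6.732 and 6.532, and Gmpr2 of 10.73, 10.73 and 10.65.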

How the data were processed

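Mean spot intensities and median local background intensities of both channels were deposited as Agilent Feature Extraction 10.10.1.1 output, per the file headers, and were neither background-corrected nor dye-normalized. The deposited value table holds log2 ratios. Set against ratios of the scanner's processed intensities, these ran as WHP over WLP (r of at least 0.9 on 16 of 18 arrays, lowest 0.538), with medians of -0.011 to 0.022 per array. Its normalization is not given in the sources used here. It served as an alternative.

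The limma package (3.58.1, under R 4.3.3) was used for normexp background correction with an offset of 50, then for loess within arrays with control spots at weight 0. Control spots and spots the scanner calls non-uniform or population outliers were left out, repeated spots were averaged per probe, and each pair entered the fits as 1 value, the mean of its 2 arrays. No receptor probe lost a pool pair. Levels were scaled between arrays by Aquantile. lmFit and eBayes were run over the 9 pool pairs with 1 coefficient per area (6 residual degrees of freedom, with 2.46 prior ones for ratios and 3.62 for levels), two-sided, with Benjamini-Hochberg adjustment over detected probes at 0.05. The number of arrays limits the precision. On simulated ratios for the hippocampus comparison over 34752 probes, 80% of 50 changes of 0.5 and 98% of 50 changes of 1 on the log2 scale were called. The simulated noise was normal and independent between probes, and the changes were planted in randomly chosen probes. These rates check the fitting step and do not give the rate for a receptor probe. The bright Htr2c probe, for one, had an SE of 0.37. Replicate numbers that areas share marked slides in the nucleus accumbens and prefrontal medial cortex. Probes were joined to genes through accessions and symbols in the RefSeq table for GRCr8, and sequences and rn4 positions are those of the files. The members, lists and tests were chosen with earlier results of these data known. All receptor probes were named; in the pathway lists, called genes were named by size, up to 4 per list and comparison. Alternatives covered background correction, scaling, filters on dim probes, dye, channel, variance model, replicate block, cell markers and left-out pool pairs.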

Additional observations from a re-analysis of the deposited data

Results flagged for a closer look

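The ratio of the opposite-strand Htr2c probe A_44_P274913 in hippocampal pool pair 1, 0.35 on the log2 scale (WHP over WLP), lay apart from the ratios of the other 8 pool pairs: its gap to the next value was 0.519 of the whole range. Its dye-swapped arrays gave 0.31 and 0.38. Dixon's test sets apart about 1 group in 20 by chance, and 15 probes were looked at. No receptor probe had pool pairs of opposite sign throughout 2 areas.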

How the results depend on the processing

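The count of receptor probes that differed between strains stayed at 0 under all alternatives in the prefrontal medial cortex, the hippocampus and the 3 differences between areas. It was 1 in the nucleus accumbens and 1 in the mean over areas without nucleus accumbens replicate 1 (Htr6 in both), and 0 under the other alternatives, so leaving out pool pairs gave a range of 0 to 1 for both. For levels, median centring gave 2 called probes between the nucleus accumbens and the prefrontal medial cortex and 7 between the nucleus accumbens and the hippocampus, against 6 and 12; the cause was not tested. Leaving out single pool pairs gave 4 to 8, 10 to 12 and 11 to 12 calls for the 3 level differences. Of 2191 alternative values of single probes for the strain ratio, 163 turned sign, none of them called. Of 896 for the level, 67 lost and 13 gained a call. With scanner processed signals, 2 level values took a call in the other direction: Htr5a at 0.32 (nucleus accumbens minus prefrontal medial cortex) and Htr1a A_43_P15468 at -0.39 (prefrontal medial cortex minus hippocampus). Same-numbered nucleus accumbens and prefrontal pairs share a slide, but same-numbered pairs of different areas did not deviate together throughout (correlations of deviations in the ratio between -0.38 and 0.17). With the replicate block the receptor counts were 0 for every strain comparison and 5, 11 and 12 for the levels. Over all probes the strain calls varied more: against 78, 26, 86 and 809 in the nucleus accumbens, prefrontal medial cortex, hippocampus and mean over areas, there were 11, 3, 19 and 491 with the block, 0 in each with trend and robust variances, and 726 in the nucleus accumbens without its replicate 1. Without the 2 pool pairs of uncorrelated dye swaps, a setting chosen after seeing the data, there were 2, 8, 2 and 270. Dim probes are limited by their signal over background.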
